A study of Homo sapiens with 20 samples.

Results

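The 34 genes described here are transcriptional targets of the tumor suppressor p53, taken from the 57773 genes of 2 RNA-seq count tables of LNCaP, a prostate adenocarcinoma line. They were chosen by gene symbol as well-known p53 targets, with earlier results of these data known, and all 34 were found in both tables. EHMT1 is a lysine methyltransferase that deposits H3K9 methylation with its partner EHMT2, and the study asked which transcripts depend on it. In the first experiment, parental LNCaP cells received 20 nmol/L of a pool of siRNAs against EHMT1 (siEHMT1) or a nontargeting pool (siNTC) for 2 days, with 2 samples each. In the second, 4 puromycin-selected LNCaP lines carried V5-tagged EHMT1 under a tetracycline-inducible promoter, as WT or with arginine in place of lysine (K450R, K451R or both, K450RK451R), and were left untreated (Veh) or given 0.25 µg/mL doxycycline for 2 days (Dox). All 8 of those conditions keep the endogenous EHMT1 gene. Each line is a single infected population, so a line and the form of EHMT1 it carries cannot be told apart. Every line carried EHMT1, so an effect of doxycycline itself and one of the induced EHMT1 cannot be told apart either.

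In unstressed cells p53 is held low by MDM2, a ubiquitin ligase whose own gene is a p53 target, so that p53 drives its own negative feedback. When DNA damage or other stress releases p53, the protein binds a response element made of a pair of similar decamers near its target genes and raises their transcription. Its targets stop the cell cycle, promote apoptosis, repair DNA and adjust metabolism. The strongest arrest target is CDKN1A, which encodes the kinase inhibitor p21. Several of the same genes, GDF15 and GADD45A among them, also answer to stress pathways that do not need p53.

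Sequences near the start of the members that carry the findings are printed below to show how closely the letters there match the known p53 response element. The reference GRCh37 genome was searched within 5000 bases of the annotated start for the 20-base p53 response element consensus, which reads the same on both strands, allowing 2 mismatches outside the fixed C and G of each decamer. A match was found for 16 of 33 members searched (48.5%), against 7.67% of 19881 protein-coding genes. These are matches of letters only, on the strand of the gene, with the 4 central bases of each decamer (positions 4 to 7) in capitals.
CDKN1A, chr6:36644226-36644245, 2256 bases upstream: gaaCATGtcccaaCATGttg
MDM2, chr12:69202703-69202722, intron: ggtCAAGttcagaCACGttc
ZMAT3, chr3:178787976-178787995, minus strand, intron: aaaCAAGtccagaCATGcct
GDF15, chr19:18496118-18496137, 840 bases upstream: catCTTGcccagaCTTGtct
GADD45A, chr1:68152458-68152477, intron: gaaCATGtctaagCATGctg
PLK2, chr5:57758101-57758120, minus strand, 2198 bases upstream: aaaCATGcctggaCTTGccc
CCNG1, chr5:162864932-162864951, intron: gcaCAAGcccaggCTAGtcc
SPATA18, chr4:52918123-52918142, intron: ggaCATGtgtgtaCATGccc
CMBL, chr5:10307696-10307715, minus strand, intron: acaCAAGcccacaCAAGccc
The ZMAT3 and PLK2 elements had 0 mismatches to the consensus, as did 0.146% of all genes searched. RRM2B also held a match with 1 mismatch, in an intron. BBC3, ASCC3, TP53I3 and PLK3 held none in this window, and FAS was not searched because it had no canonical coding start in the annotation used.

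Total counts ran from 5593400 to 12438006 per siRNA sample and from 8436791 to 12407739 per stable-line condition. The columns numbered 1 and 2 of each stable-line condition differed by no more than counting noise (chi-square per degree of freedom 0.995 to 1.02), so they were summed and counted as 1 sample. Among the siRNA samples, siNTC 2 was the shallowest and had 10.0% of its counts in 2 pseudogenes that resemble ribosomal RNA, against 0.0531% to 1.00% in the others. EHMT1 had counts-per-million (CPM) levels of 87.8 and 83.6 in siNTC and was at 29.2 and 30.7 CPM in siEHMT1, a log2 fold change of -1.51 ± 0.11 (SE, n = 2, adjusted p = 1.48e-07). With Dox it rose from between 71.7 and 88.9 CPM to between 663 and 842 CPM across the 4 lines (log2 fold change 3.23 ± 0.07 SE, n = 4 lines, adjusted p = 1.02e-23 by edgeR). The LNCaP marker KLK3 was at 2917 CPM or more in every sample. PTPRC, KRT5, TP63 and CHGA, markers of leukocytes, basal cells and neuroendocrine cells, were at 0 throughout. The leukocyte markers LYZ (0 to 0.522 CPM) and CD68 (0 to 0.609 CPM) had counts in most samples. Of the other markers of foreign cell types, COL1A1 (fibroblasts, 15.3 to 40.8 CPM), VWF (endothelium, 3.35 to 15.97 CPM) and ACTA2 (smooth muscle, 2.80 to 8.25 CPM) had counts in every sample. So did COL3A1 (fibroblasts, 0.077 to 1.775 CPM), KRT14 (basal cells, 0.225 to 1.519 CPM) and SYP (neuroendocrine, 0.203 to 2.00 CPM), whose lowest values lay below 3 counts.

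After silencing of EHMT1, ASCC3 was the single p53 target past an adjusted p of 0.05, and it was lower. All 34 members passed the filter on low counts. Of the 14532 genes tested by edgeR's quasi-likelihood test, 0.131% had an adjusted p under 0.05, in either direction. At an unadjusted p under 0.05 there were 8 members, 6 lower and 2 higher, where all genes tested gave 9.55%, made up of 5.09% lower and 4.46% higher. The median member had a log2 fold change of -0.03, beside -0.0021 over all genes, and 15 members were above 0 and 19 below. At least a 2-fold difference together with an unadjusted p under 0.05, the cutoff the study used, was met by 0 members (all genes, 1.28%). Since these are bulk RNA samples, a lower level in every cell and fewer cells with the transcript cannot be told apart.

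**Figure D1:**
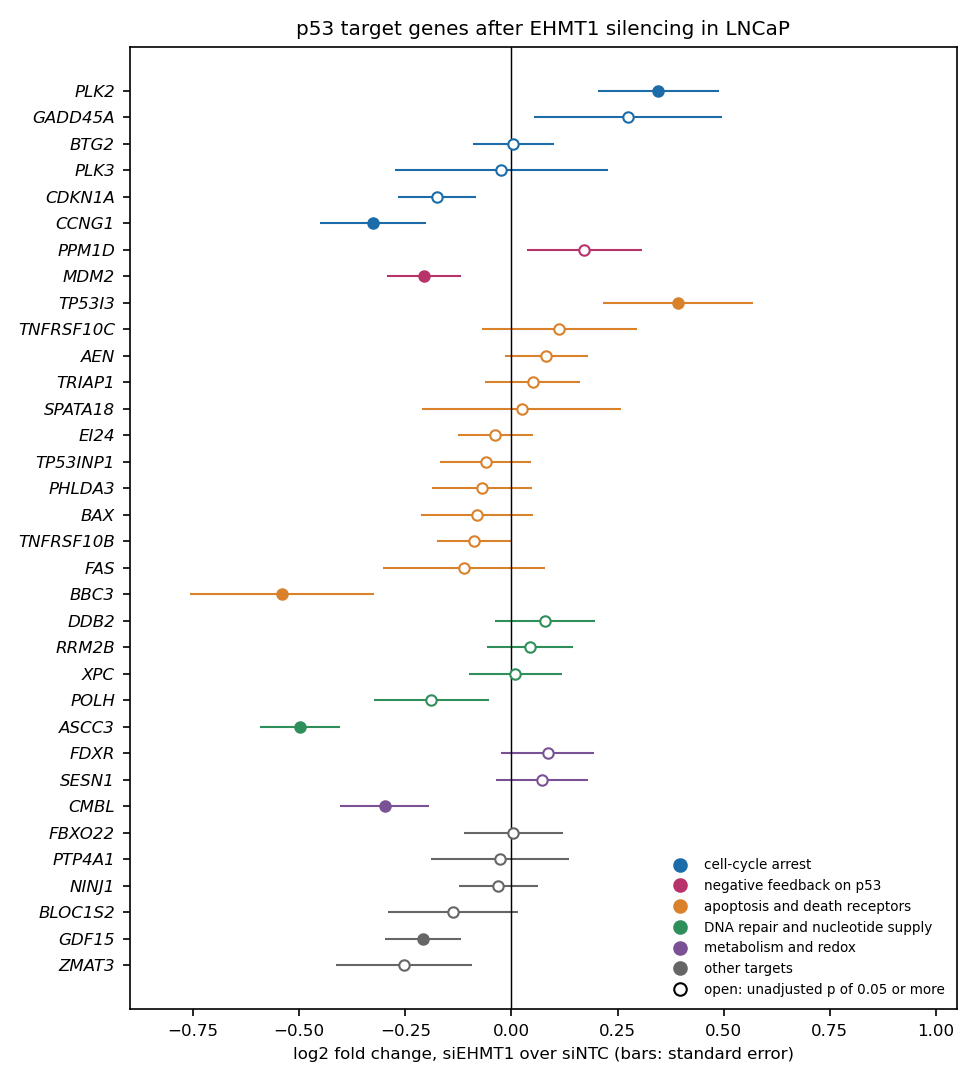
Log2 fold change of each of the 34 p53 target genes, siEHMT1 over siNTC (n = 2 samples each), with bars for the standard error and colors for the role of the gene. Filled points have an unadjusted p under 0.05. ASCC3 and BBC3 lie farthest to the left, at -0.50 and -0.54, and TP53I3 farthest to the right, at 0.39.

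ASCC3, a helicase that unwinds DNA for the repair of alkylated bases and also acts in ribosome quality control, fell with silencing. Its levels were 154.7 and 159.5 CPM in siNTC and 104.9 and 117.4 CPM in siEHMT1. The groups did not overlap, and the log2 fold change was -0.50 ± 0.09 (SE, n = 2, adjusted p = 0.0324). This call was close to the threshold: the adjusted p was 0.121 without the first siEHMT1 sample, 0.0542 with limma-voom and 0.124 with no filter on low counts. The other DNA repair and nucleotide supply genes were DDB2 and XPC, which recognize UV lesions, POLH, a translesion polymerase, and RRM2B, the p53-inducible subunit of ribonucleotide reductase. Their log2 fold changes lay between -0.19 (POLH) and 0.08 (DDB2), with adjusted p-values of 0.691 or more.

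Neither negative feedback gene passed the test after silencing. MDM2 measured 229.4 and 242.7 CPM in siNTC and 200.3 and 208.8 CPM in siEHMT1. Both silenced samples were lower, by a log2 fold change of -0.21 ± 0.09 (SE, unadjusted p = 0.0283, adjusted p = 0.448 by edgeR). PPM1D, the phosphatase WIP1 that dephosphorylates p53, went from 28.1 and 25.5 CPM to 28.1 and 32.3 CPM (log2 fold change 0.17, adjusted p = 0.722).

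Among the 6 genes of cell-cycle arrest, CDKN1A was at 406.8 and 399.2 CPM in siNTC and at 384.4 and 329.4 CPM in siEHMT1. The silenced samples were lower and differed from each other more than the controls did, and the log2 fold change was -0.18 ± 0.09 (SE, adjusted p = 0.571). It became -0.29 without the first siEHMT1 sample and -0.07 without the second. CCNG1, a cyclin that recruits a phosphatase to MDM2, had 173.7 and 256.1 CPM in siNTC against 169.5 and 172.9 CPM in siEHMT1. The second control sample alone stood apart, and the log2 fold change of -0.33 ± 0.12 (SE, adjusted p = 0.389) became -0.02 without it and -0.58 (adjusted p = 0.000434) without the other control. PLK2, a kinase of the centrosome cycle, was at 20.5 and 19.6 CPM in siNTC and at 25.0 and 26.0 CPM in siEHMT1, higher in both silenced samples (log2 fold change 0.35 ± 0.14 SE, unadjusted p = 0.0252, adjusted p = 0.435). BTG2, GADD45A and PLK3 had log2 fold changes of 0.0038, 0.28 and -0.02, none with an adjusted p under 0.728.

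The 12 genes of apoptosis and death receptors held the members with the largest fitted differences in each direction. BBC3, which encodes the BH3-only protein PUMA, was at 11.3 and 11.1 CPM in siNTC and 8.77 and 6.71 CPM in siEHMT1, with 56 to 120 counts behind each value (log2 fold change -0.54 ± 0.22 SE, unadjusted p = 0.0215, adjusted p = 0.427). The estimate was -0.35 without the second siEHMT1 sample. TP53I3, the quinone oxidoreductase PIG3, went from 13.3 and 11.7 CPM to 17.4 and 15.6 CPM (log2 fold change 0.39 ± 0.18 SE, unadjusted p = 0.0382, adjusted p = 0.489). Each of the pair had groups that did not overlap, in opposite directions. The remaining 10, among them BAX, FAS and the TRAIL receptor genes TNFRSF10B and TNFRSF10C, lay between -0.11 (FAS) and 0.11 (TNFRSF10C).

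CMBL, a hydrolase, was at 60.6 and 60.5 CPM in siNTC and at 48.1 and 50.3 CPM in siEHMT1 (log2 fold change -0.30 ± 0.11 SE, unadjusted p = 0.0105, adjusted p = 0.340). GDF15, a secreted stress cytokine, was at 699.4 and 741.9 CPM against 639.6 and 607.9 CPM (log2 fold change -0.21 ± 0.09 SE, unadjusted p = 0.0319, adjusted p = 0.463). In both genes the silenced samples lay below the controls. Across all members, 11 had both siEHMT1 samples below both siNTC samples, where 19.8% of all genes did, and 6 had both above, where 19.9% did. Markers of cell types other than LNCaP summed to 30.4 and 32.7 CPM in siNTC and to 43.2 and 44.5 CPM in siEHMT1, of 15 genes in the table, with 2 of the 4 testable ones at an unadjusted p under 0.05. These were VWF (9.26 and 7.71 against 15.97 and 15.7 CPM, log2 fold change 0.88, adjusted p = 0.0741 by edgeR) and ACTA2 (3.68 and 3.76 against 8.25 and 6.95 CPM, log2 fold change 1.03, adjusted p = 0.166 by edgeR). The part of these markers in the differences among p53 targets was not tested.

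**Figure D2:**
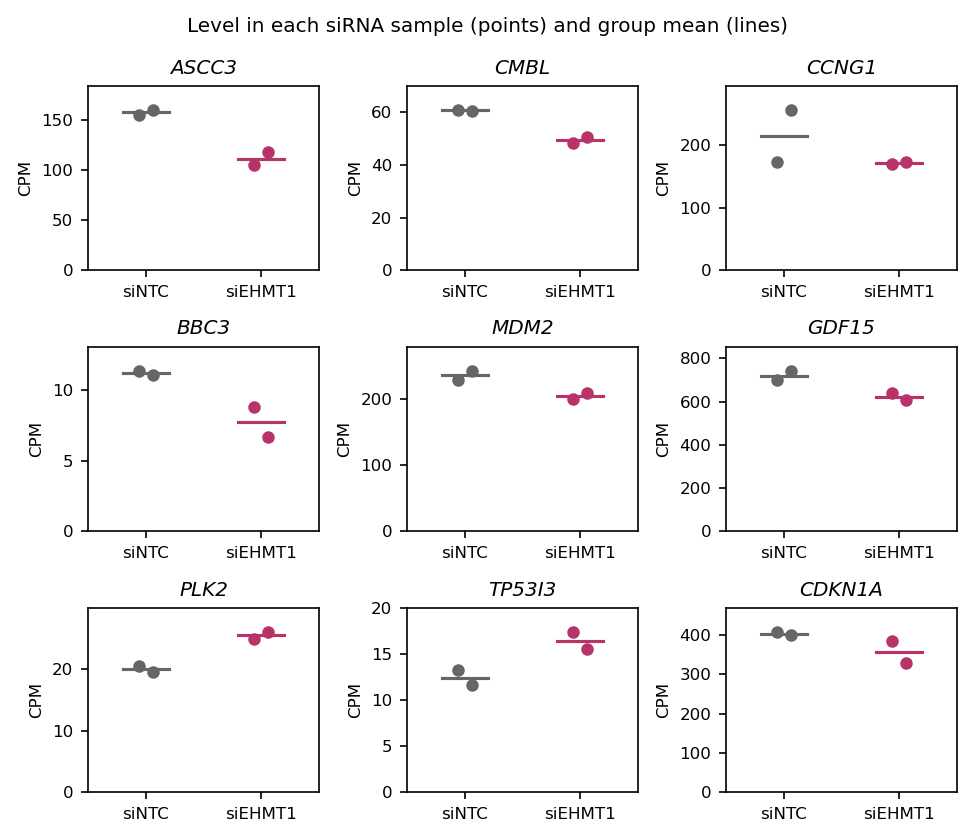
CPM in each siRNA sample (points) with the group mean (lines) for the 8 p53 targets with an unadjusted p under 0.05 and for CDKN1A; every vertical axis starts at 0. The CCNG1 panel shows 1 siNTC sample at 256.1 CPM and the other at 173.7 CPM, beside the siEHMT1 samples.

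Induction of EHMT1 with Dox over the 4 lines gave no member with an adjusted p under 0.05, where 2.11% of the 14105 genes tested had one. The fit used the 4 lines as replicates of the Dox effect. With DESeq2 the count was also 0. At an unadjusted p under 0.05, edgeR gave 4 members (all genes, 14.4%), of which 1 was higher (6.86%) and 3 lower (7.55%), and DESeq2 gave 0. None met the study's 2-fold cutoff (all genes, 0.354%). The median log2 fold change of the members was -0.02, beside 0.0050 over all genes.

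MDM2 was the member on the higher side. In the WT line it measured 89.4 CPM without Dox and 88.9 CPM with it, in K450R 99.0 and 114.8 CPM, in K451R 106.5 and 127.2 CPM, and in K450RK451R 117.1 and 126.8 CPM. The 3 mutant lines were higher with Dox and the WT line was level, for an estimate of 0.15 ± 0.06 (log2, SE, n = 4 lines, unadjusted p = 0.0293, adjusted p = 0.271). CDKN1A had Veh and Dox values of 644.2 and 701.6 CPM for WT, 832.7 and 830.7 for K450R, 724.5 and 738.9 for K451R and 881.2 and 826.7 CPM for K450RK451R. Its estimate over the lines was 0.01 ± 0.05 (SE, adjusted p = 0.942), with 2 lines above 0 and 2 below, and without the WT line it changed sign to -0.02.

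RRM2B was lower with Dox in all 4 lines. Its Veh and Dox values were 132.8 and 130.3 CPM for WT, 142.6 and 140.6 for K450R, 167.4 and 145.3 for K451R and 134.6 and 109.3 CPM for K450RK451R. Most of that difference came from the K451R and K450RK451R lines, and the estimate was -0.14 ± 0.06 (log2, SE, unadjusted p = 0.0326, adjusted p = 0.284), or -0.09 without the K450RK451R line. GADD45A, a growth arrest gene that activates stress kinases, was at 55.4 and 61.4 CPM in WT, 59.2 and 46.2 CPM in K450R, 60.8 and 52.98 CPM in K451R and 54.9 and 44 CPM in K450RK451R, each without and with Dox. It was lower in the mutant lines and higher in WT, and the estimate of -0.18 ± 0.08 (SE, adjusted p = 0.309) became -0.29 (adjusted p = 0.0484) without the WT line.

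FAS, the death receptor for FAS ligand, was scarce, with 48 to 125 summed counts a condition. Veh and Dox values were 10.6 and 7.66 CPM for WT, 10.6 and 8.53 for K450R, 10.8 and 5.86 for K451R and 4.87 and 5.66 CPM for K450RK451R. The K450RK451R line was low in both conditions, and the estimate over the lines was -0.39 ± 0.18 (log2, SE, unadjusted p = 0.0395, adjusted p = 0.309). Without the K451R line it became -0.23, and 0 members were then lower at an unadjusted p under 0.05. Exons annotated on the opposite strand cover 25.7% of the exon bases of FAS. Since the use of strand in counting is not given in the sources used here, reads of the 2 strands there cannot be told apart.

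Across all 34 members, 2 were higher with Dox in every line (FBXO22 and EI24, all genes 10.6%) and 4 were lower in every line (RRM2B, AEN, CMBL and ASCC3, all genes 10.3%). ASCC3, which fell with EHMT1 silencing, was at 95.7 and 88.6 CPM in WT, 92.2 and 91.3 CPM in K450R, 97.1 and 84.4 CPM in K451R and 104.0 and 94.2 CPM in K450RK451R, without and with Dox. The difference with Dox did not pass the test (log2 fold change -0.12 ± 0.06 SE, adjusted p = 0.398).

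**Figure D3:**
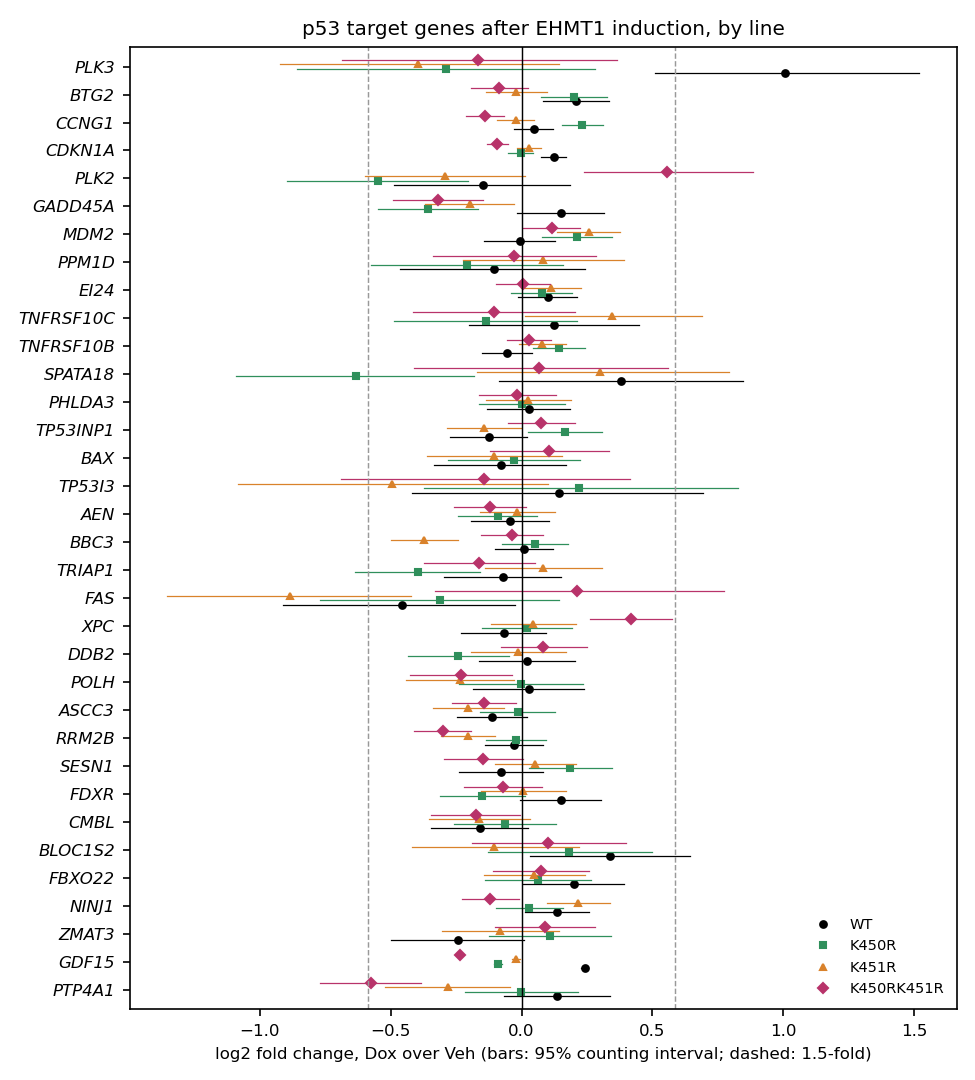
Log2 fold change of each p53 target, Dox over Veh, in the WT, K450R, K451R and K450RK451R lines, 1 sample a condition. Bars are 95% counting intervals and dashed lines mark 1.5-fold. PLK3 in WT (1.01), SPATA18 in K450R (-0.63) and FAS in K451R (-0.88) lie outside the dashed lines, and PTP4A1 in K450RK451R (-0.58) lies just inside.

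Within single lines there is 1 sample a condition, so the differences carry counting error only and were not tested. Past 1.5-fold, WT had 1 member higher (all genes, 4.74%) and 0 lower (6.44%), and K450R had 0 higher (6.74%) and 1 lower (5.83%). K451R had 0 higher (5.74%) and 1 lower (5.56%), and K450RK451R had 0 in both directions (8% and 5.54%). The member in WT was PLK3, a stress-responsive polo-like kinase, at 57 counts (4.81 CPM) without Dox and 86 counts (9.69 CPM) with it, a log2 fold change of 1.01 with a 95% counting interval of 0.51 to 1.52. The other lines had 6.91 and 5.65 CPM (K450R), 7.05 and 5.37 CPM (K451R) and 5.99 and 5.35 CPM (K450RK451R). WT with Dox was therefore the only condition of PLK3 above 7.05 CPM.

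SPATA18, which takes part in mitochondrial quality control, was at 12.1 CPM in K450R without Dox and 7.79 CPM with it (log2 fold change -0.63, interval -1.09 to -0.18). The other lines were between 6.49 and 8.90 CPM in both conditions, so the uninduced K450R sample was the high value. FAS in K451R had a log2 fold change of -0.88 (interval -1.35 to -0.42). All 3 members had a mean of under 100 counts a condition, and none is left where such genes are set aside. Over the members, the median log2 fold change was 0.02 for WT, -0.0027 for K450R, -0.02 for K451R and -0.08 for K450RK451R. By TMM, the medians of all genes were -0.0023 in K451R and 0.0006 in K450RK451R. Scaling by total counts alone moved the last 2 member medians to 0.11 and 0.06, so their sign depends on the scaling. Such a change moves all genes of a line by the same amount, so the place of the members among all genes stays the same.

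GDF15 was the most deeply counted member, with 57536 to 100260 counts a condition. The WT line had 8462 CPM without Dox and 10010 with it, K450R 8570 and 8058, K451R 6994 and 6884, and K450RK451R 7637 and 6484 CPM. WT was higher with Dox (log2 fold change 0.24, interval 0.23 to 0.25) and K450RK451R lower (-0.24, interval -0.25 to -0.22), beyond counting error in both, while the estimate over the lines was -0.03 ± 0.06 (SE, adjusted p = 0.898).

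The lines differed from each other in the level of several p53 targets. In edgeR's F-test over the 4 lines, in which the Veh and Dox samples of a line serve as its replicates, 5 of 34 members had an adjusted p under 0.05, where 3.05% of all genes did. They were GDF15 (adjusted p = 0.00884), CDKN1A (0.0110), MDM2 (0.0110), ZMAT3 (0.0159) and BBC3 (0.0471). With DESeq2's likelihood ratio test the count was 2, CDKN1A and MDM2. Leaving out WT with Dox took the count from 5 to 3 and the adjusted p of MDM2, ZMAT3 and BBC3 to 0.222, 0.230 and 0.273. BBC3 also lost the call without either K450R or K450RK451R condition or without K451R with Dox (adjusted p = 0.0508 to 0.103), ZMAT3 without K450RK451R with Dox (0.0658) and CDKN1A without K450RK451R under Veh (0.0568).

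CDKN1A, MDM2 and ZMAT3 were lowest in the WT line and highest in K450RK451R. CDKN1A averaged 672.9 ± 40.5 CPM in WT and 853.9 ± 38.5 CPM in K450RK451R (SD, n = 2 conditions a line), with K451R at 731.7 ± 10.2 and K450R at 831.7 ± 1.36 CPM. The K450R and K450RK451R lines did not differ beyond their spread. MDM2 averaged 89.2 ± 0.325 CPM in WT, 106.9 ± 11.1 in K450R, 116.8 ± 14.6 in K451R and 121.9 ± 6.89 CPM in K450RK451R, and the spreads of the 3 mutant lines overlapped. ZMAT3, an RNA-binding zinc finger protein that regulates splicing, averaged 26.1 ± 3.10 CPM in WT, 35.5 ± 1.87 in K450R, 33.7 ± 1.37 in K451R and 40.7 ± 1.79 CPM in K450RK451R. Both of its WT values, 28.3 without and 23.9 CPM with Dox, lay below the lowest value of any mutant line, 32.7 CPM.

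GDF15 and BBC3 had their highest mean in the WT line. GDF15 averaged 9234 ± 1092 CPM in WT, 8314 ± 362 in K450R, 7061 ± 815 in K450RK451R and 6939 ± 77.7 CPM in K451R. Without Dox, GDF15 was at 8462 CPM in WT and 8570 CPM in K450R. BBC3 was at 130.4 and 131.4 CPM in WT without and with Dox, 115.1 and 119.2 CPM in K450R, 116.0 and 89.7 CPM in K451R and 103.3 and 100.7 CPM in K450RK451R. Its WT values were above all others.

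Compared singly with WT, the K450RK451R line had 5 members past an adjusted p of 0.05 (all genes, 3.61%), 3 of them higher (1.47%) and 2 lower (2.14%). CDKN1A, MDM2 and ZMAT3 were higher, by 0.34 ± 0.07, 0.45 ± 0.09 and 0.64 ± 0.13 on the log2 scale (SE), with adjusted p-values of 0.00544, 0.00288 and 0.00241. GDF15 and BBC3 were lower, at -0.39 ± 0.09 and -0.36 ± 0.09, with adjusted p-values of 0.0106 and 0.0277. K451R had 3 members (all genes, 2.34%), 1 higher (0.773%) and 2 lower (1.57%), with MDM2 at 0.38, GDF15 at -0.41 and BBC3 at -0.36. K450R had 0 by edgeR (all genes, 0.291%) and 6 at an unadjusted p under 0.05, all of them higher than WT (2.86% of all genes). They were CDKN1A (log2 difference 0.31), MDM2 (0.26), ZMAT3 (0.44), TP53INP1 (0.34), which promotes autophagy and apoptosis, SESN1 (0.28), a sestrin that restrains growth signaling, and BTG2 (0.23), an antiproliferative gene. Of these, CDKN1A was nearest to the threshold, with a standard error of 0.07 and an adjusted p of 0.0776. The 3 comparisons share the WT line, so they are not independent of each other.

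**Figure D4:**
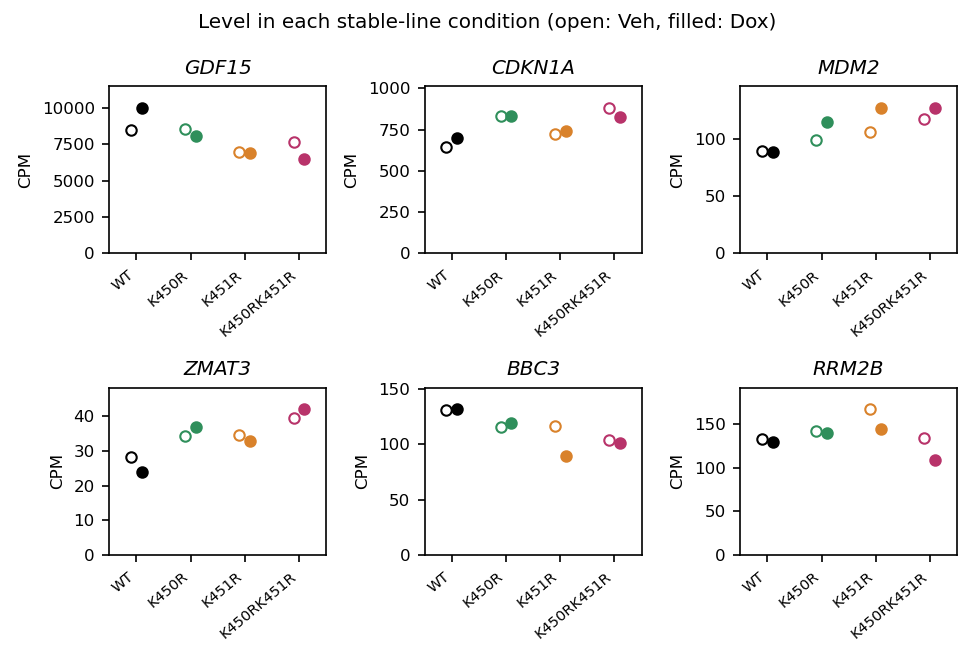
CPM in each of the 8 stable-line conditions (open circles Veh, filled circles Dox) for the 5 p53 targets that differed between lines and for RRM2B, which was lower with Dox in all 4 lines; every vertical axis starts at 0. CDKN1A, MDM2 and ZMAT3 are lowest in the WT line, and BBC3 is highest there. GDF15 has its highest mean there, with uninduced K450R just above uninduced WT.

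The levels of some targets differed by far more between the 2 experiments than within them. The siNTC samples and the uninduced lines were scaled together by TMM, and their values are given side by side with no test, since transfection, the line and the table cannot be told apart. Per kilobase of exon, here scaled within each experiment, GDF15, CDKN1A and CCNG1 were the 3 most abundant members in both. They were at 345.3, 134.5 and 69.4 CPM per kb in siNTC and 3793, 257.2 and 95.9 CPM per kb in the uninduced lines. Without overlap and past 2-fold, 5 members were higher in the lines (14.7%, all genes 12.1%) and 2 lower (5.88%, all genes 11.9%). These shares do not set the members apart from other genes.

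GDF15 was at 654.4 and 687.1 CPM in siNTC and between 7000 and 8577 CPM in the uninduced lines, an 11.8-fold difference. BBC3 was at 10.6 and 10.3 CPM against 103.3 to 130.5 CPM (11.1-fold), and GADD45A at 7.42 and 8.60 CPM against 54.9 to 60.8 CPM (7.11-fold). CDKN1A (380.6 and 369.7 CPM against 644.8 to 881.7 CPM, 2.06-fold) and RRM2B (2.02-fold) stood at the 2-fold limit, and were at 1.88-fold and 1.85-fold when scaled by total counts. MDM2 lay on the other side, with 214.7 and 224.8 CPM in siNTC and 89.5 to 117.1 CPM in the lines, 2.13-fold higher in siNTC. TP53I3 was 2.10-fold higher in siNTC, at 12.5 and 10.8 CPM against 5.31 to 5.96 CPM. Over all 34 members the median log2 difference was 0.07, beside 0.0091 over all genes, with 18 members above 0 and 16 below. The targets did not share a direction, with CDKN1A higher in the lines and MDM2 higher in siNTC. The part of p53 in these differences was not tested.

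**Figure D5:**
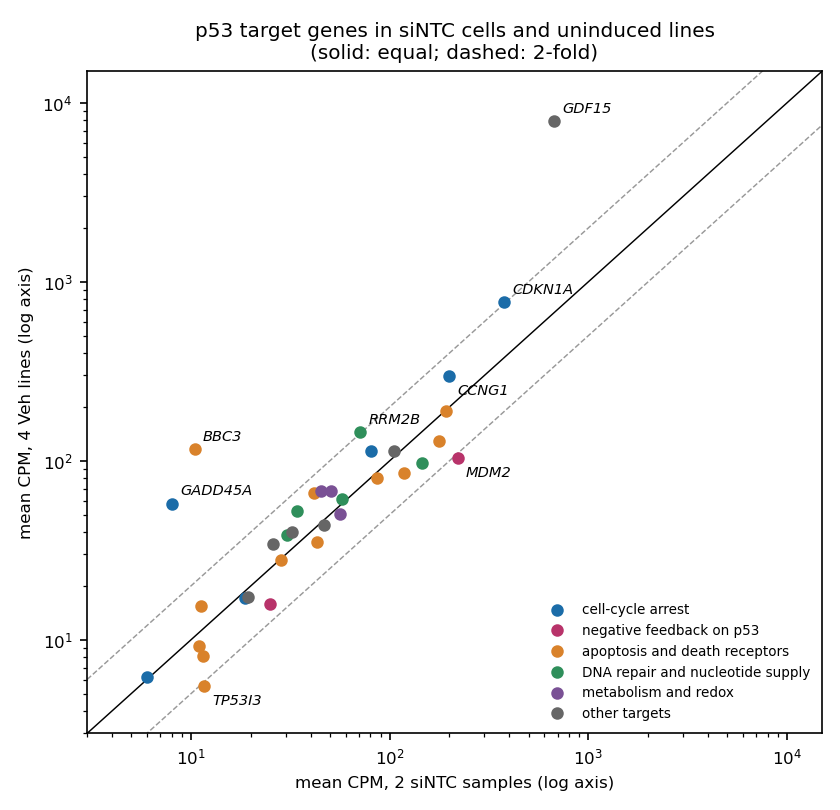
Mean CPM of each p53 target in the 2 siNTC samples (horizontal) and the 4 uninduced lines (vertical), both on log axes and scaled together. The solid line marks equal levels and the dashed lines 2-fold. GDF15, BBC3 and GADD45A lie far above the upper dashed line, and MDM2 and TP53I3 below the lower.

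Genes of the ATF4 stress response, none of them a member, lay higher in the lines as well. Of these 14 genes, 9 were higher past 2-fold without overlap (all genes, 12.1%), and the median log2 difference was 1.497. Scaled within each experiment, their summed level was 1002 to 1043 CPM in siNTC and 4310 to 5377 CPM in the uninduced lines. DDIT4 was the largest part of it, at 195.4 and 207.7 CPM in siNTC and between 2057 and 2847 CPM in the uninduced lines. On the same scale DDIT3, which encodes the stress factor CHOP, was at 18.7 and 23.9 CPM in siNTC and between 335.7 and 430.9 CPM in the uninduced lines. Of 12 immediate-early genes, 9 were higher in the lines in this way (all genes, 12.1%) and 2 (MYC and FOSB) lower (11.9%), with a median of 2.48. With Dox over the 4 lines, 5 of the 14 ATF4 genes fell and 1 rose at an adjusted p under 0.05 by edgeR (all genes, 2.11%). Of 11 testable immediate-early genes, 8 fell and 1 rose. Of the 5 ATF4 genes that fell, all but ATF3 were slightly higher with Dox in the WT line. By line, the median log2 fold change of the ATF4 genes was 0.047 in WT, 0.044 in K450R, -0.138 in K451R and -0.077 in K450RK451R. For the immediate-early genes it was -0.071, -0.291, -0.468 and -0.605 in the same order. ATF3, which is in both lists, fell by 0.37 on the log2 scale (adjusted p = 0.000482). The part of these pathways in the levels of GDF15, BBC3 and GADD45A was not tested. The ATF4 and immediate-early lists were chosen with earlier results of these data known, so the shares beside them are for description only.

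In the wider p53 pathway, counts are read against the 0.131% (silencing) and 2.11% (Dox) of all genes with an adjusted p under 0.05, and the 9.55% and 14.4% with an unadjusted one, so that counts near 0 in lists of this size do not set a list apart. Of 23 testable regulators of p53, EHMT1 itself was the only one with an adjusted p under 0.05 after silencing or with Dox. MDM4, the partner of MDM2, was at 42.8 and 52.4 CPM in siNTC and 38.9 and 49.0 CPM in siEHMT1. Between lines (all genes, 3.05%), 1 of the 23 had an adjusted p under 0.05, which was HIPK2, a kinase that phosphorylates p53 (adjusted p = 0.00355), at 215.2 and 203.0 CPM in K450RK451R and between 143.2 and 196.3 CPM in the others. Of further p53 targets outside the 34, 0 of 31 testable genes had an adjusted p under 0.05 by edgeR after silencing (1 at an unadjusted p under 0.05) and 0 of 30 with Dox (4 at an unadjusted p under 0.05). Genes that p21 represses through the DREAM complex, which halts mitotic transcription, also gave 0 of 26 in each, with 1 and 3 at an unadjusted p under 0.05, and median log2 fold changes of 0.02 after silencing and -0.06 with Dox. Between lines, 1 of the 30 further targets (LRP1, adjusted p = 0.0131 by edgeR) and 2 of the 26 DREAM genes (CDC25A, 0.0228, and CDC20, 0.0351) had an adjusted p under 0.05.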

How the data were processed

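Per the file headers and the labels, the authors deposited raw counts of reads per Ensembl gene in 2 tables of 20 columns in all, the first holding the siRNA experiment and the second the inducible lines. The submitters' processing notes name FastQC 0.11.9, STAR 2.7.2, featureCounts 1.6.4 and hg19/GRCh37. The libraries were stranded, single-end and made from total RNA, and the use of strand and the annotation release are not given in the sources used here.

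Stable-line columns of a condition were summed. Counts were scaled by TMM and filtered with filterByExpr, then tested over all genes with edgeR 4.0.16 in R 4.3.3 (quasi-likelihood, Benjamini-Hochberg), with DESeq2 1.42.0 and limma 3.58.1 as alternatives. No source says that siRNA replicates came from separate cultures, so p-values measure the spread between these samples, which may be technical. Within a line, log2 fold changes used a prior of 0.5 counts and 95% exact counting intervals, which cover counting error only. A count of 0 allows up to 3 counts. Positions and exon lengths came from GENCODE release 44 on GRCh37. All 34 members are accounted for, and values in every sample are given for CDKN1A, MDM2, members with an unadjusted p under 0.05 in the siRNA or Dox fit, members past 1.5-fold in a line with at least 20 counts in both conditions, and the 5 with the smallest p between lines. The members and gene lists were chosen with earlier results of these data known. The scripts were tested on simulated counts.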

Additional observations from a re-analysis of the deposited data

Results flagged for a closer look

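In 102 groups of 4 values (the Veh levels, the Dox levels and the log2 fold changes of the 4 lines for each member), 8 held a value far from the other 3 by Dixon's test, where chance gives about 1 in 20, or 5.1. The uninduced K450RK451R line had FAS at 4.869 CPM, against 10.55 to 10.82 CPM in the others, and XPC at 54.17 CPM, against 63.22 to 64.13 CPM. The uninduced K451R line had TP53I3 at 5.956 CPM, against 5.303 to 5.376 CPM. With 43 to 63 counts behind these values, a gap of that size is within counting error. The uninduced K450R line had SPATA18 at 12.09 CPM, against 6.492 to 7.05 CPM. With Dox, PLK3 in WT was at 9.692 CPM, against 5.345 to 5.654 CPM, and its log2 fold change was 1.0063 (the others, -0.394 to -0.1649). The Dox log2 fold change of CMBL in K450R was -0.0627 (the others, -0.1755 to -0.16), and that of FBXO22 in WT was 0.199 (the others, 0.04816 to 0.07328). The counting intervals, -0.258 to 0.133 for CMBL and 0.0048 to 0.392 for FBXO22, hold the values of the other lines.

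For 6 members the Dox effect had opposite signs in different lines beyond counting error, which with 1 sample a condition was not tested. The share of all genes with such opposite signs was not computed, so this count does not set the members apart. The highest and lowest log2 fold changes were 0.123 and -0.092 for CDKN1A, 0.165 and -0.144 for TP53INP1, 0.242 and -0.236 for GDF15, 0.554 and -0.548 for PLK2, 0.232 and -0.140 for CCNG1, and 0.216 and -0.119 for NINJ1. The highest value was in WT for CDKN1A and GDF15, and the lowest value in K450RK451R for CDKN1A, GDF15, CCNG1 and NINJ1.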

How the results depend on the processing

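Of 208 counts and medians recomputed under the alternatives, 161 moved little and 47 moved. After silencing, members with an adjusted p under 0.05 numbered 1, and 0 without the filter on low counts, with limma-voom or with upper-quartile normalization. At an unadjusted p under 0.05, DESeq2 gave 0 higher and 3 lower and limma-voom 1 higher. The member median was -0.0047 with upper-quartile normalization, where the median of all genes was 0.0213. Leaving out a sample gave 0 to 2 members at an adjusted p, 0 to 1 higher and 3 to 7 lower unadjusted, and medians of -0.0589 to -0.0204. The second called member without siNTC 1 was CCNG1, and the count of 0 came without siEHMT1 1.

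For Dox over the lines, DESeq2 gave 0 higher and 0 lower at an unadjusted p, and upper-quartile normalization 1 lower. Keeping the 16 columns apart, which treats counting noise as replicate error, gave 5 members adjusted (all genes, 2000 of 12673). At an unadjusted p it gave 3 higher and 6 lower (all genes, 3744 in either direction). Leaving out a line gave 0 to 1 adjusted (GADD45A, without WT), 0 to 1 higher and 0 to 4 lower, with medians of -0.0454 to -0.0084. CDKN1A lay between -0.0228 (without WT, a reversed sign) and 0.0469. Lines differed for 2 members with DESeq2 and for 3 to 7 (10 to 13 unadjusted) leaving out a condition, an alternative added after seeing the data, as was that of scaling the 2 tables together, which gave 3 members higher in the lines by total counts.

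Within lines, 2-fold left 0 lower in K450R and in K451R. The first columns alone gave 0 higher in WT, 2 lower in K451R and 1 higher in K450RK451R, with medians of 0.072 in WT and -0.0344 in K450RK451R. The second columns gave 2 higher in WT and 0 lower in K450R. Total counts, which move all genes of a line by the same amount, gave 1 higher in K450RK451R. The medians were then 0.107 in K451R and 0.0589 in K450RK451R. A mean of at least 100 counts left 0 in WT, K450R and K451R.

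Replicate numbers did not pair the samples (Pearson's correlation of same-numbered deviations -0.0052 for siRNA and -0.0325 to 0.0445 for the lines). With the replicate block, the siRNA fit gave 1 member (118 genes in all, against 19). The 16 columns with that block gave 4 members for Dox, with 2 higher and 6 lower unadjusted, and 12 for line differences. Of the 12673 genes tested there, 1900 had an adjusted p under 0.05 for Dox and 3168 for line differences. Depth and the number of samples limit small changes, since 2 samples a group left 2 residual degrees of freedom.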

Other observations

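Among the members, TNFRSF10B and TNFRSF10C are neighbors with similar sequences, and reads that map to both cannot be assigned with certainty, so their values (193.5 and 13 CPM on average after silencing) carry that limit. For XPC, 24.6% of the exon bases are also covered by exons annotated on the opposite strand. Markers of LNCaP summed to between 6825 and 7127 CPM in the siRNA samples and to between 12050 and 13300 CPM in the lines, scaled within each table.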
